A study of Mus musculus with 4 samples.

Results

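The 41 genes described here are components and targets of the Wnt pathway, from the ligands and the machinery that secretes them to receptors, cytoplasmic regulators, nuclear factors and feedback targets. They were chosen by gene symbol, as the rows of the deposited count table that carry the listed names, out of 52459 genes in the table. RNA was measured in intestinal stem cells (ISCs) sorted from the small intestine of wild-type (WT) C57/Bl6 female mice, as 2 pools from mice aged 2 months (ISC_2mth) and 2 pools from mice aged 22 months (ISC_22mth), each pool holding cells of 5 animals. Neither age carried a transgene or a treatment. Cells were sorted with the SM6 strategy, a gate on surface proteins (CD31 and CD45 negative, CD24 medium, CD166 positive, CD44 high, GRP78 low, EPHB2 high and EPCAM positive), and RNA was amplified by SPIA, a linear amplification that covers the full length of transcripts, before sequencing. The gate proteins CD44 and EPHB2 are products of known intestinal Wnt targets, so the cells of both ages were selected on them.

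Wnt proteins are secreted lipid-modified ligands that bind a Frizzled receptor together with an LRP co-receptor. Without a ligand, a complex built on Axin and APC lets the kinases CK1 and GSK3 mark β-catenin for degradation; when the receptors are engaged, the complex is held back, β-catenin reaches the nucleus and joins TCF/LEF factors at target genes. In the crypts of the small intestine this signal maintains the stem cells, and several of its targets, such as Axin2, Rnf43, Znrf3, Nkd1 and Notum, encode proteins that damp the pathway and so report on its activity. R-spondins, which bind LGR receptors, raise the signal by removing the receptor-degrading ligases RNF43 and ZNRF3. The comparison of the ages asked which of these genes differed in RNA level between young and old ISCs.

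The libraries held between 11662654 and 15975698 counts, of which between 62.6% and 73.8% came from mitochondrially encoded genes, more in the old pools (72.9% and 73.8%) than in the young pools (62.6% and 65.7%). Between 3852178 and 4593004 counts per library were left for other genes, and a count of 3 in a library corresponded to between 0.198 and 0.245 normalized CPM (CPM, counts scaled to a common library size corrected by TMM for differences in RNA composition). Stem cell markers summed to between 2800.0 and 3109.9 CPM, a sum in which the ages overlapped. Both old pools lay below both young pools for 3 of the 11 markers (against 23.6% of all genes) and above them for 4 (against 24.0%). Lgr5, the defining marker, was one of the 3, at 247.9 and 214.1 CPM in young and 208.4 and 205.9 CPM in old pools (-0.16 on the log2 scale, edgeR FDR = 0.525). Markers of other epithelial lineages were also present: goblet cell markers summed to between 1942.4 and 2652.7 CPM, and Muc2, the main intestinal mucin, lay between 1012.6 and 1438.3 CPM, above Lgr5 in every library. Enterocyte markers summed to 320.9 and 437.9 CPM in young and to 802.6 and 678.5 CPM in old pools, with 3 of 8 called higher. Paneth cell markers summed to 1076.1 and 843.7 CPM in young and to 2438.6 and 973.5 CPM in old pools, with 3 of 11 called higher. Over all genes tested, edgeR called 1.63% higher. Cycling cell markers summed to 1452.6 and 1500.7 CPM in young and to 1542.4 and 1725.9 CPM in old pools. Enteroendocrine markers summed to 39.6 and 150.5 CPM in young and 128.7 and 92.9 CPM in old pools with no separation of the ages, and tuft cell markers to 1.03 and 2.18 against 7.25 and 3.27 CPM, with 1 of 6, Dclk1, called higher (0.276 and 0.265 against 3.17 and 1.55 CPM). Outside the epithelium, the defining markers of mesenchymal cells (Col1a1), leukocytes (Ptprc) and endothelial cells (Pecam1) stayed at or below 0.572 CPM, and 4 of 9, 3 of 7 and 2 of 3 markers of these lists had no counts. Leukocyte markers summed to 10.5 and 13.2 CPM in young and 19.6 and 20.8 CPM in old pools, nearly all from Itgam, the one of the 7 called higher. Mesenchymal markers summed to between 0.572 and 2.25 CPM, and Pdgfrb (1.93 and 2.05 CPM in young, 1.28 and 0.164 CPM in old pools) and Acta2 (0.0689 and 0.132 against 0.604 and 0.409 CPM) lay in opposite directions. Pdgfrb was not called (edgeR FDR = 0.297), and Acta2 had too few counts to be tested. The part of these marker levels in the results was not tested. In bulk RNA, fewer cells of a type and less RNA per cell cannot be told apart.

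The 250 bases before and the 50 bases after the start of 4 feedback genes are shown because the text turns on these targets and TCF/LEF factors bind DNA near many of them. The sequences are from RefSeq on GRCm38.p6, read 5′ to 3′ on the gene's strand, the plus strand in each case. Capitals mark a match, on either strand, to the letters CTTTG followed by 2 bases that are each an A or a T, the core that TCF/LEF factors recognise. No match overlapped another. Starts are those of RefSeq, which for Axin2 and Sp5 are also the first base of the gene in GENCODE vM21; the start used for Rnf43 lies 365 bases and that for Nkd1 6279 bases inside the GENCODE gene, whose first transcripts begin further upstream. The windows lie at chr11:108920099-108920398 (Axin2), chr11:87662837-87663136 (Rnf43, the first of 2 starts in the table), chr8:88527383-88527682 (Nkd1) and chr2:70474673-70474972 (Sp5).
Axin2: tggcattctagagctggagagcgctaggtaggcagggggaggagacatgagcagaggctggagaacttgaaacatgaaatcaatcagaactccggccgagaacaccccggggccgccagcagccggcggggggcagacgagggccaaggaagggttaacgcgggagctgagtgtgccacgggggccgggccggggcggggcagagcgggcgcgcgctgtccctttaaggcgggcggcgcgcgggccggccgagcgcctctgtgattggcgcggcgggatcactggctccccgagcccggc
Rnf43: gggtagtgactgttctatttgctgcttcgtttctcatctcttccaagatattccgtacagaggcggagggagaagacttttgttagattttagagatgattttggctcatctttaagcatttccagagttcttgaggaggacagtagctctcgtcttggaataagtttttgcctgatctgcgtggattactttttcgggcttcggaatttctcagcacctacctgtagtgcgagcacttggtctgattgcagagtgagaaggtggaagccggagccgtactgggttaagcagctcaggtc
Nkd1: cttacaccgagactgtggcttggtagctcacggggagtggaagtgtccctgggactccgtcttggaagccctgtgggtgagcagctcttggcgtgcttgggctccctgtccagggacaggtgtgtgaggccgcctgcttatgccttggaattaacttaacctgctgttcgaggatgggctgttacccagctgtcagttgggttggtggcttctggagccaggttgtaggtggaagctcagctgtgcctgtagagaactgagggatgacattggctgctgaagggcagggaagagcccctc
Sp5: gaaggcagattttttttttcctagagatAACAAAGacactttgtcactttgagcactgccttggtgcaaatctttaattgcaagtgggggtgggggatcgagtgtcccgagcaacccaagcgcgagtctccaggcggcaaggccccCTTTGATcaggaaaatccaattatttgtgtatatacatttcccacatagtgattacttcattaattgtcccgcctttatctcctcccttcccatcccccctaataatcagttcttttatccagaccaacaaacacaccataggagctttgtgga
The Sp5 window held 2 matches, 1 on each strand, while the Axin2, Rnf43 and Nkd1 windows held none. The same letters were found in 6 of 35 windows of the members with an entry (17.1%; 26 of 41 members were listed) and in 5544 of 32851 windows of all genes (16.9%). The other windows with a match belonged to Fzd7, Lef1, Gsk3a, Wnt3 and Tcf7l2. A match is a run of letters, not a measured binding site, and the absence of a match covers this window only.

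Of the 41 genes, 37 passed the filter on low counts and 4 did not (Wnt6, Wnt9b, Tcf7l1 and Notum). The filter asked for over 5 reads and over 1 CPM in 1 library or more, with CPM here taken from total counts without TMM. Of the 37, 35 passed in libraries of both ages, while Wnt3 passed in ISC_22mth replicate 1 alone and Porcn in ISC_2mth replicate 2 alone. In the quasi-likelihood test of edgeR, adjusted by Benjamini-Hochberg over all 13692 genes tested, 1 member was lower in old ISCs at FDR 0.05, the β-catenin co-factor Bcl9l, and 0 were higher; over all genes, 0.628% were called lower and 1.63% higher (2.26% in either direction). limma voom with sample quality weights called 2 members lower, Bcl9l and Axin2, and 2.34% of all genes. At an unadjusted p under 0.05 there were 7 members (18.9%, against 16.9% of all genes), of which 5 were lower in old ISCs (Bcl9l, Axin2, Rnf43, Tcf7l2 and Tle3, against 7.65% of all genes) and 2 higher (Apc and Myc, against 9.26%). The values of the ages did not overlap for 19 of the 37 (51.4%, against 47.6% of all genes): both old pools lay below both young pools for 12 members (32.4%, against 23.6%) and above them for 7 (18.9%, against 24.0%). The median log2 fold change of the 37 was -0.11, beside -0.0049 for all genes tested, with a range from -0.79 (Bcl9l) to 1.10 (Fzd3). It was also -0.11 when mitochondrially encoded genes were left out of the scaling. The 95% interval of the change stayed inside 2-fold in both directions for 29 members and reached beyond it for 8, which were Bcl9l and 7 genes of few counts (Wnt3, Porcn, Fzd3, Fzd4, Fzd8, Lef1 and Nkd1). With 2 pools per age there are 3 equal splits of the 4 pools, so that the smallest p an exact permutation test of a single gene can give is 0.333.

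**Figure D1:**
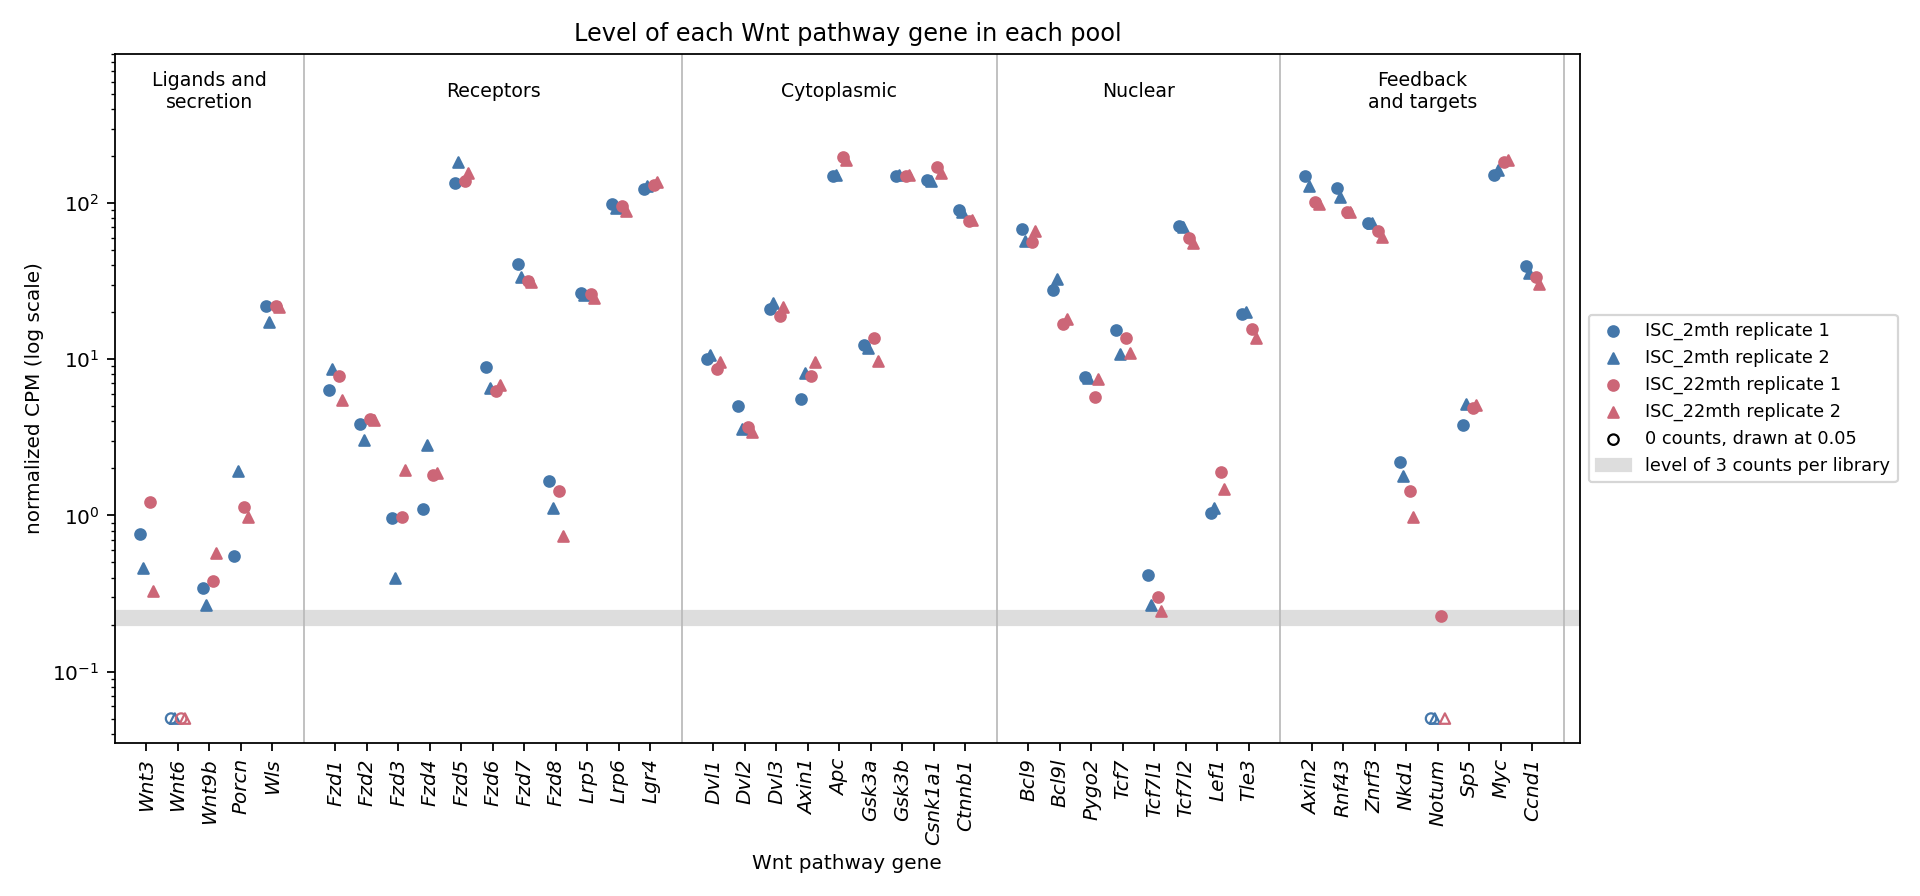
Normalized CPM (log axis) of the 41 Wnt pathway genes, grouped by role, in the 2 pools of 2-month-old (blue) and the 2 pools of 22-month-old (red) mice, with circles for replicate 1 and triangles for replicate 2; open symbols are libraries with 0 counts and the grey band is the level of 3 counts. Myc, Apc, Gsk3b, Csnk1a1, Lgr4 and Fzd5 lie above 100 CPM in every library, Wnt6 has no counts, and the red symbols of Axin2, Rnf43 and Bcl9l lie below the blue ones.

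Ligand genes were near the limit of detection. Wnt3, the Wnt ligand that Paneth cells make next to the stem cells, had 11 and 7 counts in the young pools and 16 and 4 in the old pools, and its ages overlapped. Wnt9b had 5, 4, 5 and 7 counts in the same order of libraries, below the filter. Wnt6 had 0 counts in all 4, which allows up to 3 counts, or between 0.198 and 0.245 CPM, in a library. Porcn encodes the acyltransferase that attaches the lipid to Wnt proteins. It had 8 and 29 counts in young and 15 and 12 in old pools, so the young pools alone spanned the range of all 4. Wls, the carrier that takes lipid-modified Wnt proteins to the cell surface, was the most abundant gene of this group, at 22.0 and 17.4 CPM in young and 22.0 and 21.7 CPM in old pools. Its change of 0.15 on the log2 scale (SE 0.17, 95% interval from -0.20 to 0.50, edgeR FDR = 0.708) was inside the spread of the young pools. None of the 3 genes tested here passed FDR 0.05 or an unadjusted p of 0.05 in edgeR, limma voom or DESeq2. Of all genes, edgeR called 2.26% and gave an unadjusted p under 0.05 for 16.9%.

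Lyz1, the defining Paneth cell marker, was at 310.6 and 226.3 CPM in young and 748.7 and 203.2 CPM in old pools. ISC_22mth replicate 1 was the highest library for 10 of the 11 Paneth cell markers and also for Wnt3, which passed the filter in that library alone. The order of all 4 libraries matched that of Wnt3 for 2 of the 11. That order rests on 11, 7, 16 and 4 Wnt3 counts, so neither match can place the source of Wnt3 RNA. Without ISC_22mth replicate 1 Wnt3 did not pass the filter, so no fold change without it was obtained. The part of Paneth cell RNA in the Wnt3 level was not tested.

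Among the 11 receptor genes none was called, and 0 had an unadjusted p under 0.05 in edgeR, limma voom or DESeq2. Over all genes 2.26% were called and 16.9% had such a p in edgeR. Fzd5, the Frizzled receptor best known from crypt and Paneth cells, was at 135.4 and 182.7 CPM in young and 139.2 and 155.4 CPM in old pools. The old values lay between the young ones, and the change was -0.11 on the log2 scale (SE 0.14, edgeR FDR = 0.733). Per kilobase of exon, Fzd5 made up between 58.4% and 68.2% of the summed level of the 10 Frizzled genes, in each library the largest share, although 16.4% of its 50-base stretches also occur in other annotated genes, and 1233 bases of its exons overlap Gm38058 on the opposite strand. Fzd7, a receptor reported in Lgr5-positive stem cells, came next with 19.0% to 26.9%, at 40.8 and 33.4 CPM in young and 31.6 and 31.3 CPM in old pools. Both old values were below both young values, but the change of -0.24 (SE 0.15, edgeR FDR = 0.431) did not pass the test; it had the lowest p of the receptors, 0.118. The remaining Frizzled genes each held under 6% of the family per kilobase.

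Fzd1 was at 6.34 and 8.67 CPM in young and 7.78 and 5.48 CPM in old pools, and Fzd6, which shares 152 exonic bases with the opposite-strand gene Gm26704, at 8.96 and 6.55 against 6.27 and 6.87 CPM. Fzd2 was at 3.86 and 3.04 against 4.16 and 4.09 CPM, and Fzd4 at 1.10 and 2.84 against 1.81 and 1.88 CPM. Of these 4 receptor genes, Fzd2 alone had both old pools above both young pools, and by less than the gap between the young pools. Fzd8 was at 1.65 and 1.12 CPM in young and 1.44 and 0.736 CPM in old pools. Fzd3, which acts mostly in the planar polarity branch of Wnt signaling, had 14 and 6 counts in young and 13 and 24 in old pools. Its normalized values did not overlap (0.964 and 0.397 against 0.982 and 1.96 CPM) but its log2 fold change of 1.10, with an SE of 0.72 and an edgeR FDR of 0.463, did not pass the test. The value rested on single libraries, being 0.53 without ISC_22mth replicate 2, 0.60 without ISC_2mth replicate 2, 1.52 without ISC_22mth replicate 1 and 1.86 without ISC_2mth replicate 1.

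The co-receptors Lrp5 and Lrp6, which carry the signal of a bound ligand into the cell with the Frizzled protein, differed little between the ages. Lrp6 was at 98.3 and 93.6 CPM in young and 96.3 and 89.5 CPM in old pools (log2 fold change -0.047, 95% interval from -0.30 to 0.20), and Lrp5 at 26.7 and 25.9 against 26.1 and 24.7 CPM (-0.049, from -0.36 to 0.26). Per kilobase, Lrp6 held between 72.0% and 72.5% of the pair in the 4 libraries. Lgr4, a receptor for R-spondins, was at 122.4 and 128.3 CPM in young and 130.2 and 135.8 CPM in old pools. Its old values were the higher ones, with a change of 0.085 on the log2 scale (95% interval from -0.16 to 0.33). Lgr4 and its relative Lgr5 were at similar levels per kilobase: Lgr4 made up between 46.3% and 53.5% of the summed level of Lgr4, Lgr5 and Lgr6 in the 4 libraries, and Lgr6 was listed at 0.

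The 95% intervals of all 9 cytoplasmic genes lay inside 2-fold, though those of Dvl2 (from -0.93 to 0.40) and Axin1 (from -0.18 to 0.85) came close to it. Of the 9, 0 were called by edgeR, limma voom or DESeq2, beside 2.26%, 2.34% and 1.44% of all genes. At an unadjusted p under 0.05 there was 1 in edgeR (11.1%, against 16.9% of all genes) and 1 in DESeq2 (against 10.2%), and 2 in limma voom with sample quality weights (against 16.1%). Apc, the scaffold of the complex that degrades β-catenin and the best-known tumor suppressor of the intestine, was at 149.3 and 151.6 CPM in young and 196.6 and 187.9 CPM in old pools. The old pools were both higher, by 0.35 on the log2 scale (SE 0.11, 95% interval from 0.12 to 0.59), with an unadjusted p of 0.00548 but an FDR of 0.111 in edgeR. Without ISC_22mth replicate 2 its FDR was 0.0478, the one fit of those run in which Apc passed, with 1 old pool taken to vary like the rest. Csnk1a1, which encodes the CK1 kinase that starts the marking of β-catenin, was at 139.8 and 138.3 CPM in young and 169.7 and 157.0 CPM in old pools (0.23, SE 0.11, edgeR FDR = 0.314). Apc (43.3%) and Csnk1a1 (40.6%) have exons of low GC content, and the 4096 genes tested with an exonic GC content under 45% had a median change of 0.10 on the same scale. With GC and length offsets the change was 0.37 for Apc (edgeR FDR = 0.14) and 0.19 for Csnk1a1 (edgeR FDR = 0.481).

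Ctnnb1, the gene of β-catenin, was at 90.7 and 87.9 CPM in young and 77.0 and 78.4 CPM in old pools, or 17.2 ± 0.381 and 15.0 ± 0.195 CPM per kilobase (SD, n = 2 pools). That was the highest mean of the cytoplasmic genes in young ISCs, while in old ISCs Csnk1a1 (15.6) and Gsk3b (15.4 CPM per kilobase) were slightly above it. The old values were the lower ones, with a change of -0.20 (SE 0.12, 95% interval from -0.45 to 0.05, edgeR FDR = 0.42), and 759 bases of its exons overlap Ulk4 on the opposite strand. Gsk3b, the kinase that completes the marking of β-catenin, was at 148.6 and 151.8 CPM in young and 150.0 and 152.3 CPM in old pools. Its change was 0.009 on the log2 scale with a 95% interval from -0.23 to 0.25, an interval well inside 2-fold. The related kinase gene Gsk3a, which shares 25.7% of its 50-base stretches with other genes and 820 bases of exon with 9130221H12Rik on the opposite strand, was at 12.3 and 11.8 against 13.7 and 9.73 CPM. Axin1, the scaffold that is present without a Wnt signal, was at 5.58 and 8.14 CPM in young and 7.78 and 9.57 CPM in old pools (0.34, edgeR FDR = 0.526).

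The Dishevelled genes encode the adaptors that pass the signal from the Frizzled receptors to the Axin complex. Dvl3 was at 21.1 and 23.0 CPM in young and 18.9 and 21.6 CPM in old pools, Dvl1 at 10.1 and 10.7 against 8.61 and 9.57 CPM, and Dvl2 at 5.03 and 3.57 against 3.70 and 3.43 CPM. Their changes were -0.13, -0.20 and -0.27 on the log2 scale, none of which passed the test. Dvl3 made up between 53.9% and 57.8% of the family per kilobase, Dvl1 between 32.8% and 34.0%, and Dvl2 between 9.0% and 13.0%. With the strand setting of the counting not given, reads from overlapping genes cannot be told apart, and 1151 bases of Dvl2 exons overlap Acadvl and 36 bases of Dvl1 exons overlap Tas1r3 on the opposite strand.

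The one member that passed the test was nuclear. Bcl9l, on chromosome 9 (GRCm38, 44482825 to 44511896, plus strand), encodes a co-factor that binds β-catenin and links it to Pygopus. It had 400 and 495 counts in young and 224 and 220 in old pools, or 27.6 and 32.7 against 16.9 and 18.0 CPM. The mean fell from 30.2 ± 3.67 to 17.5 ± 0.754 CPM (SD, n = 2 pools). The log2 fold change was -0.79 (SE 0.16, 95% interval from -1.12 to -0.46, edgeR quasi-likelihood FDR = 0.0129), so that young ISCs held 1.73 times the level of old ones. The call was also made by limma voom with sample quality weights (FDR = 0.0118) and DESeq2 (FDR = 0.0145). It was lost with GC and length offsets, which remove each library's trend of counts on these gene properties (-0.49, edgeR FDR = 0.156) and without ISC_2mth replicate 2 (-0.66, edgeR FDR = 0.089). Bcl9l exons have a GC content of 61.0%, and the 282 genes tested at 60% or more had a median change of -0.30. Of its exons, 662 bases overlap Gm47205 and 110 bases overlap Cxcr5, both on the opposite strand, and the strand setting of the counting is not given in the sources used here.

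Bcl9, the paralog with the same role, was at 67.9 and 57.2 CPM in young and 56.5 and 66.7 CPM in old pools, a change of -0.022 on the log2 scale (95% interval from -0.31 to 0.26). Its ages overlapped. The difference between the changes of Bcl9 and Bcl9l was not tested. Per kilobase of exon Bcl9 was the more abundant of the pair in both ages, with means of 7.40 and 7.30 CPM per kilobase against 3.77 and 2.18 for Bcl9l. Pygo2, which reads histone marks and joins β-catenin through these co-factors, was at 7.65 and 7.54 CPM in young and 5.74 and 7.44 CPM in old pools (-0.21, edgeR FDR = 0.715).

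Of the TCF/LEF factors, which carry β-catenin to DNA, Tcf7l2 was the most abundant, with between 55.2% and 64.9% of the family per kilobase, followed by Tcf7 with between 33.5% and 42.4%. Tcf7l2, which encodes the factor TCF4 that the intestinal stem cells depend on, was at 71.6 and 70.3 CPM in young and 59.5 and 55.2 CPM in old pools. Both old values were lower than both young ones, with a change of -0.31 (SE 0.12, 95% interval from -0.57 to -0.046), an unadjusted p of 0.0235 and an edgeR FDR of 0.214. Tcf7 was at 15.4 and 10.8 CPM in young and 13.7 and 10.9 CPM in old pools, and its ages overlapped. Lef1 had 15 and 17 counts in young and 25 and 18 in old pools (0.64 on the log2 scale, SE 0.57, edgeR FDR = 0.613), and Tcf7l1, mostly a repressor, had 6, 4, 4 and 3 counts. Lef1 and Tcf7l1 together stayed a minor part of the family, at no more than 1.75% and 0.740% per kilobase, and their exons overlap the opposite-strand genes Gm43352 (1208 bases) and Gm15401 (179 bases). Tle3, a Groucho-type co-repressor that sits on TCF factors when β-catenin is absent, was at 19.5 and 20.1 CPM in young and 15.7 and 13.7 CPM in old pools. The old pools were both lower, by -0.43 on the log2 scale (SE 0.17), with an unadjusted p of 0.0224 and an edgeR FDR of 0.208. Over 14 other settings the Tle3 change lay between -0.92 and -0.23, with a call under scaling by total counts alone.

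Among the feedback genes and targets, 7 were tested, and both old pools lay below both young pools for 5 of them (Axin2, Rnf43, Znrf3, Nkd1 and Ccnd1; 71.4%, against 23.6% of all genes), above them for Myc, and overlapped for Sp5. The median of the 7 was -0.23 on the log2 scale, in a range from -0.71 to 0.24, and 0 were called by edgeR's quasi-likelihood test, with 3 at an unadjusted p under 0.05 (42.9%, against 16.9% of all genes). limma voom with sample quality weights and DESeq2 each called 1, Axin2, beside 2.34% and 1.44% of all genes, while the quasi-likelihood test called 2.26% of all genes.

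Axin2, on chromosome 11 (108920349 to 108950783, plus strand), is the inducible partner of Axin1 and the most widely used reporter of Wnt activity. It had 2156 and 1932 counts in young and 1348 and 1204 in old pools, or 148.5 and 127.8 against 101.8 and 98.5 CPM. The mean was 138.2 ± 14.6 CPM in young and 100.1 ± 2.4 CPM in old ISCs (SD, n = 2 pools), a difference of -0.46 on the log2 scale (SE 0.12, 95% interval from -0.72 to -0.21) that lay just outside the threshold in edgeR's quasi-likelihood test (FDR = 0.051). It passed with limma voom and sample quality weights (FDR = 0.0262) and with DESeq2 (FDR = 0.0373). With GC and length offsets it was -0.31 (edgeR FDR = 0.266), and without ISC_2mth replicate 1, the higher young pool, -0.35 (edgeR FDR = 0.482). Axin2 exons have a GC content of 56.4%, and genes tested between 55% and 60% had a median change of -0.17. The opposite-strand gene Gm11670 overlaps 209 bases of its exons.

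Rnf43 and Znrf3 encode the ubiquitin ligases that remove Frizzled and LRP proteins from the cell surface. Rnf43 had 1816 and 1649 counts in young and 1166 and 1080 in old pools, or 125.1 and 109.1 against 88.1 and 88.3 CPM. Both old pools were lower, by -0.41 on the log2 scale (SE 0.12, 95% interval from -0.66 to -0.15), with an unadjusted p of 0.00338 and an edgeR FDR of 0.0876. limma voom with sample quality weights gave an FDR of 0.0574 and DESeq2 of 0.105. Znrf3 was at 74.1 and 74.6 CPM in young and 66.7 and 60.9 CPM in old pools (-0.22, SE 0.12, edgeR FDR = 0.386).

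Nkd1, an intracellular inhibitor that binds Dishevelled, had 32 and 27 counts in young and 19 and 12 in old pools. The ages did not overlap, but the change of -0.71 on the log2 scale carried an SE of 0.52 and a 95% interval from -1.81 to 0.38. Notum encodes a secreted enzyme that strips the lipid from Wnt proteins and that aged Paneth cells are known to release. It had 0 counts in both young pools, 3 in ISC_22mth replicate 1 and 0 in ISC_22mth replicate 2, so both ages were at or under the level of 3 counts and no change was detectable at this depth. Its exons overlap the opposite-strand genes Notumos (708 bases) and Myadml2os (210 bases). Sp5, a transcription factor that TCF/β-catenin induces and that damps other targets, had 55 and 78 counts in young and 64 and 62 in old pools (0.14, SE 0.29).

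Myc and Ccnd1 link the pathway to growth and the cell cycle. Myc, the growth-promoting transcription factor, was at 151.5 and 163.7 CPM in young and 184.7 and 188.2 CPM in old pools, opposite in direction to Axin2 and Rnf43. Its change was 0.24 (SE 0.11, 95% interval from 0.0042 to 0.48), with an unadjusted p of 0.0465 and an edgeR FDR of 0.288. Per kilobase Myc was the most abundant of the 41 genes, with 58.0 ± 3.17 CPM per kilobase in young and 68.6 ± 0.915 in old ISCs. Axin2 had 25.1 ± 2.66 and 18.2 ± 0.435 (SD, n = 2 pools). Ccnd1, the gene of cyclin D1, was at 39.7 and 35.9 CPM in young and 33.8 and 30.5 CPM in old pools (-0.23, edgeR FDR = 0.431), and 1100 bases of its exons overlap LTO1 on the opposite strand.

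**Figure D2:**
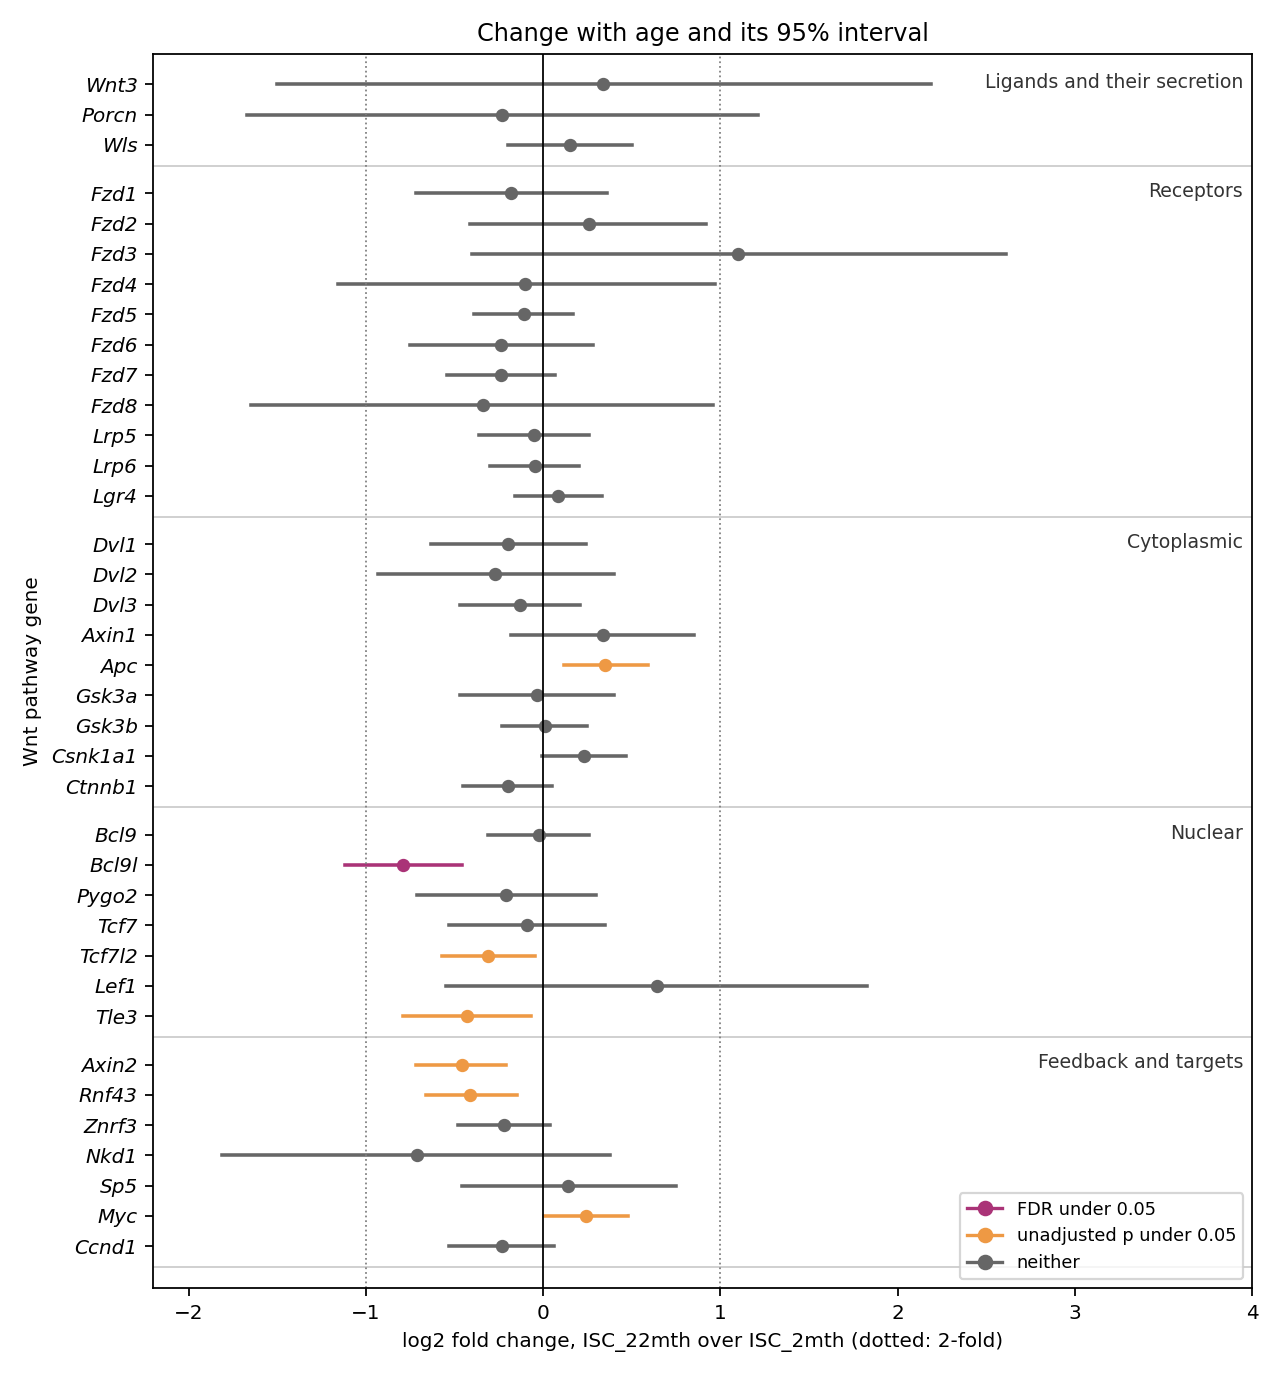
Log2 fold change of the 37 Wnt pathway genes tested, ISC_22mth over ISC_2mth, by role; points are edgeR estimates, bars are 95% intervals and dotted lines mark 2-fold. Bcl9l alone passed FDR 0.05 (purple), 6 more had an unadjusted p under 0.05 (orange), and the widest bars belong to genes with few counts, such as Wnt3, Porcn and Fzd3.

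The changes of the members varied with the GC content of their exons, as did those of all genes. The median change of all genes tested went from 0.10 under 45% GC through 0.03, -0.064 and -0.17 to -0.30 at 60% or more, and that of the members in the same ranges from 0.23 (5 members) through -0.10 (7), -0.16 (14) and -0.20 (9) to -0.32 (2). With GC and length offsets the median of the members was -0.041 and 0 were called by edgeR, with 6 at an unadjusted p under 0.05 (16.2%, against 13.6% of all genes in that fit); over all genes 0.913% were then called. Whether the trend with GC content arose in the libraries or in the cells was not tested.

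**Figure D3:**
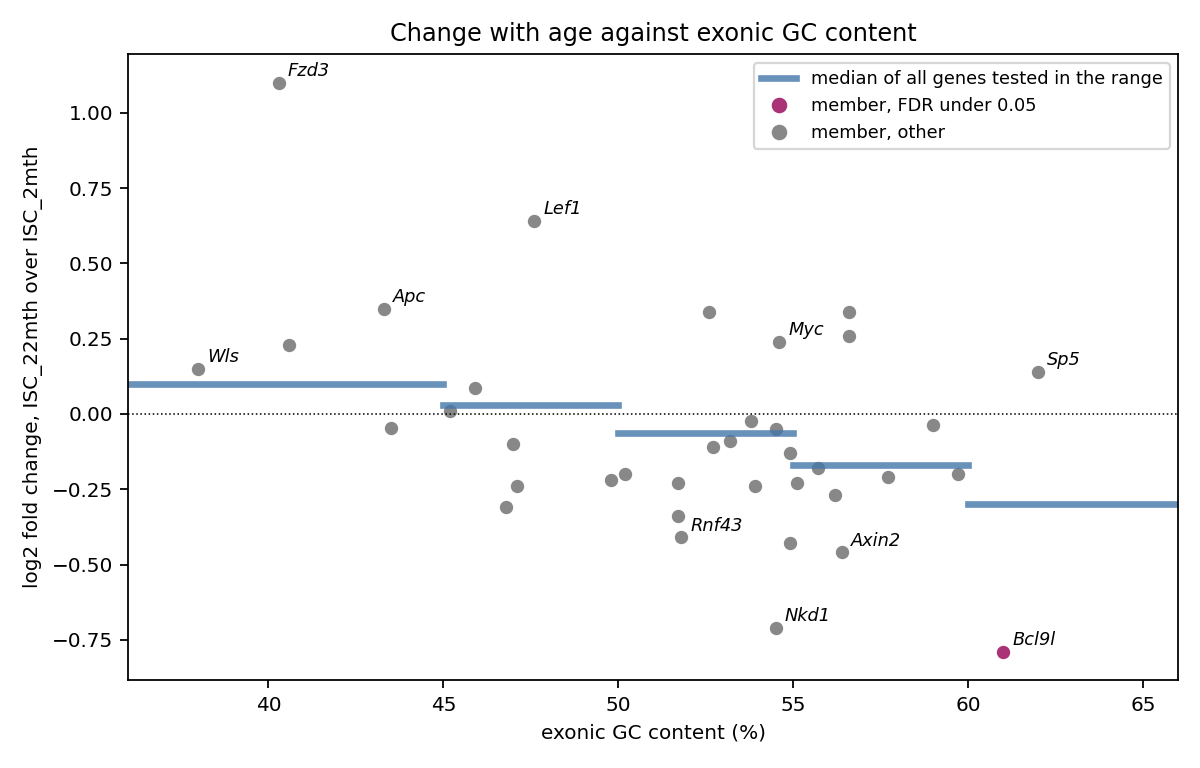
Log2 fold change, ISC_22mth over ISC_2mth, of the 37 Wnt pathway genes tested (points) against the GC content of their exons in percent, with the median of all genes tested in each of 5 GC ranges (blue lines). The blue lines step down from 0.10 to -0.30, and Bcl9l (purple) and Axin2 lie below the line of their range.

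Of 14 other settings of scaling, filter, test and model, Bcl9l was called in 12, Axin2 in 11, Rnf43 in 2, and Apc and Myc in 0. The Bcl9l change lay between -1.27 and -0.49 and the Axin2 change between -0.96 and -0.30 on the log2 scale over these settings, in each of which both genes were lower in old ISCs.

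**Figure D4:**
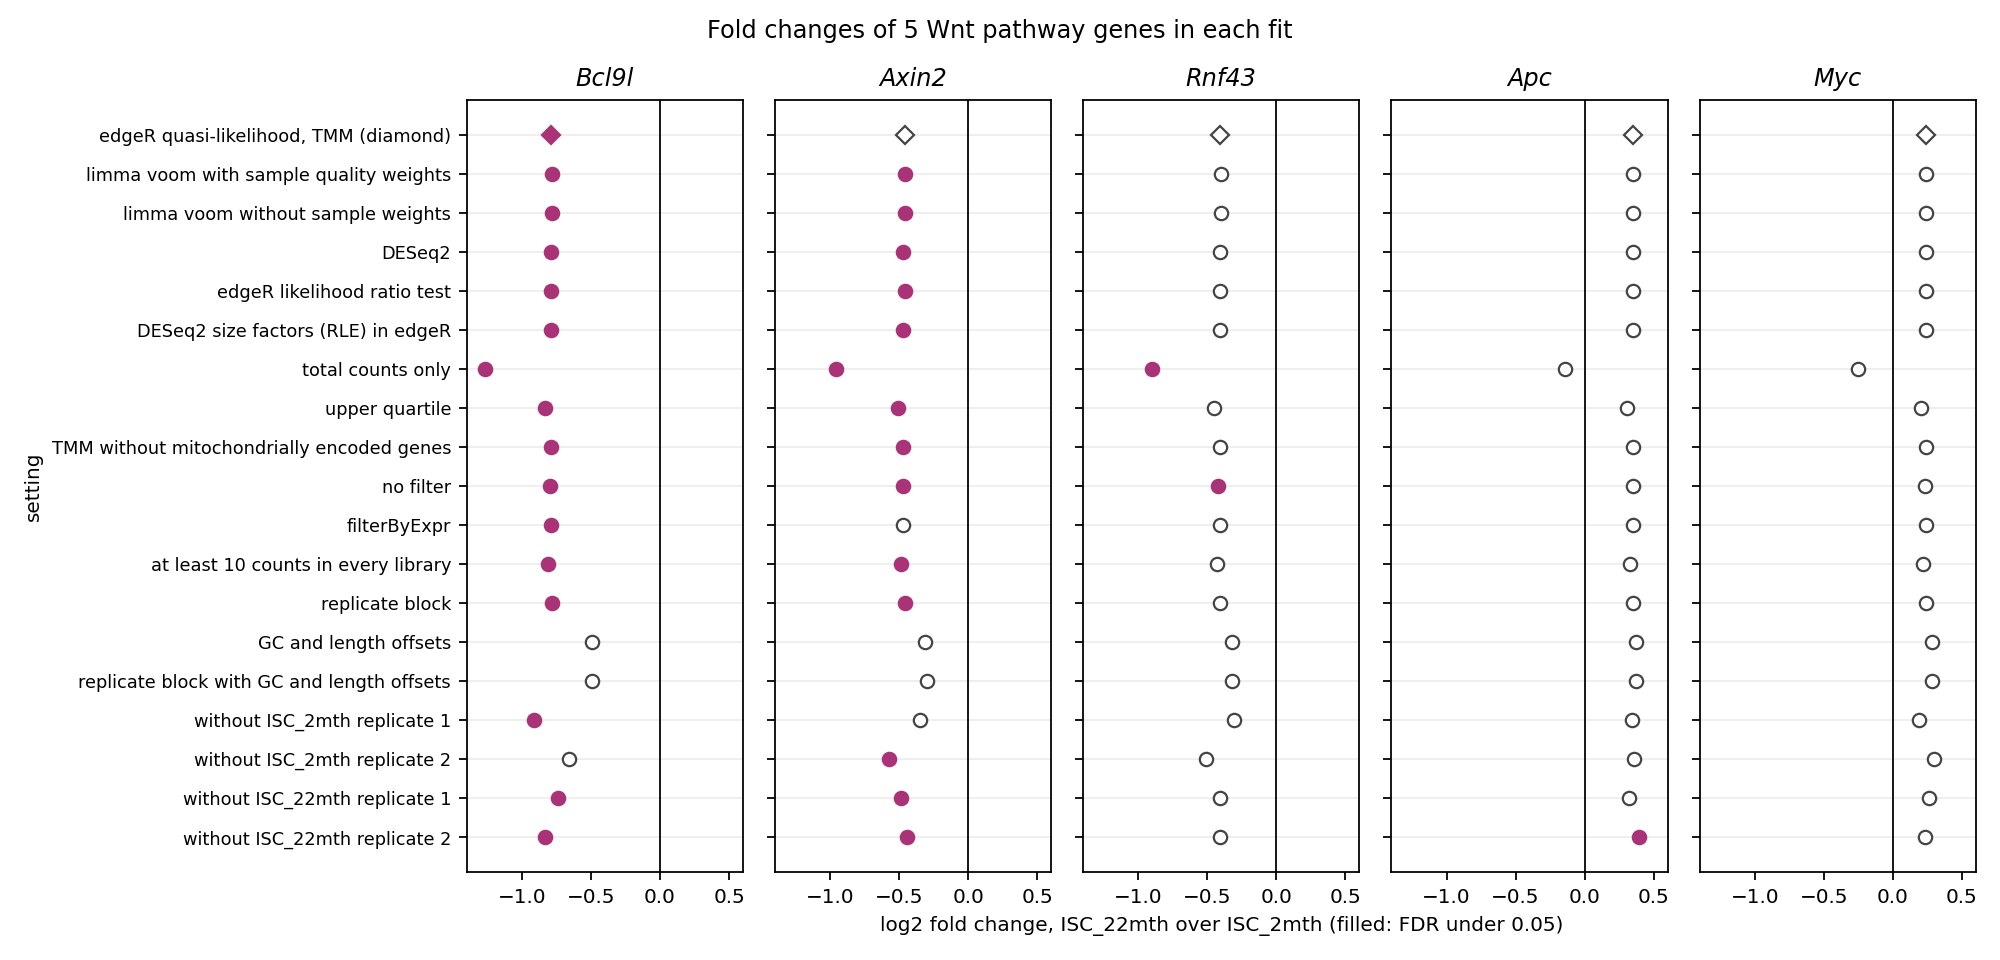
Log2 fold change, ISC_22mth over ISC_2mth, of 5 feedback, nuclear or cytoplasmic genes under the quasi-likelihood test with TMM (diamond), under 14 other settings and with each pool left out in turn; filled symbols passed FDR 0.05. Bcl9l and Axin2 stayed below 0 and Rnf43 too, and Apc and Myc stayed above 0 except with scaling by total counts alone (-0.14 and -0.25), which moves the median of all genes to -0.49.

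A list of 102 other genes of the pathway was tabulated the same way, with Lgr5 entered both as a receptor and as a target. This list and the members were chosen with earlier results of these data known. Shares of them, or of their parts, set beside all genes may be shaped by that choice. Of these, 62 were tested and 19 had no counts in any library, and edgeR called 1 lower and 0 higher; 7 were higher and 12 lower at an unadjusted p under 0.05 (30.6% of the 62, against 16.9% of all genes), 1.61% were called against 2.26% of all genes, and the median change was -0.031. The gene called was Csnk1g2, a membrane-bound CK1 kinase that phosphorylates LRP6, at 18.0 and 17.5 CPM in young and 8.76 and 10.9 CPM in old pools. It fell by 0.86 on the log2 scale (SE 0.19, edgeR FDR = 0.0226), and the call was lost with the GC and length offsets (-0.67, edgeR FDR = 0.0995) and without ISC_2mth replicate 1 (-0.84, edgeR FDR = 0.0804). Of the 20 other ligand genes, 1 was tested, Wnt2b, at 4.27 and 2.84 CPM in young and 2.57 and 2.13 CPM in old pools (-0.59, edgeR FDR = 0.452), and 11 had no counts, among them all 4 R-spondin genes. Wnt2b was the largest of the 19 Wnt ligand genes per kilobase, with 44.5% to 65.8% of a small sum.

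Of the 10 secreted inhibitors, which bind Wnt proteins or LRP, Sfrp5 was the one tested, at 8.89 and 9.86 CPM in young and 6.12 and 5.64 CPM in old pools (-0.67, SE 0.23, unadjusted p = 0.00903 and FDR = 0.141 in edgeR). Among other receptors, Ptk7, a pseudokinase of the planar polarity branch, had 46 and 35 counts in young and 17 and 13 in old pools (-1.21, edgeR FDR = 0.195). Tmem59, which acts with Frizzled receptors, was at 32.9 and 40.6 against 48.4 and 49.0 CPM (0.40, edgeR FDR = 0.146). Of 13 other nuclear genes tested, 0 were called by edgeR, limma voom or DESeq2, with 1 at an unadjusted p under 0.05 in edgeR (7.69%, against 16.9% of all genes), 1 in DESeq2 (against 10.2%) and 2 in limma voom with sample quality weights (against 16.1%), and the lowest p belonged to the kinase gene Hipk2 (220.8 and 198.7 against 179.1 and 169.4 CPM, -0.27, edgeR FDR = 0.24) and to Tbl1x, a part of co-repressor complexes (101.0 and 97.0 against 116.3 and 115.4 CPM, 0.23, edgeR FDR = 0.34).

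The 12 other intestinal Wnt targets lay on both sides of 0, with a median of -0.019, 3 higher and 4 lower at an unadjusted p under 0.05 (58.3%, against 16.9% of all genes), and 0 called by edgeR's quasi-likelihood test, against 2.26% of all genes. Ephb2, a gate protein of the sort and a receptor that positions cells along the crypt, was at 58.9 and 51.5 CPM in young and 35.5 and 41.6 CPM in old pools (-0.52, SE 0.14, edgeR FDR = 0.0576). It was called by limma voom but not by DESeq2. Of 14 other settings 8 called Ephb2, with changes between -1.01 and -0.33. Slc12a2, an ion transporter that marks crypt cells, was at 868.2 and 838.9 against 1004.8 and 1026.4 CPM (0.25, edgeR FDR = 0.193). In the planar polarity branch, which signals without β-catenin, 10 of 12 genes were tested with a median of -0.30, and both old pools lay below both young pools for 6 of them (against 23.6% of all genes). Celsr1, a cadherin of that branch, was at 7.72 and 7.34 against 4.38 and 5.32 CPM (-0.64, edgeR FDR = 0.202). Rac1, a small GTPase gene that shares 50.3% of its 50-base stretches with other genes, was at 138.7 and 140.1 against 172.2 and 197.3 CPM (0.41, edgeR FDR = 0.0781). It was called by limma voom but not by DESeq2, and in 4 of 14 other settings.

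**Figure D5:**
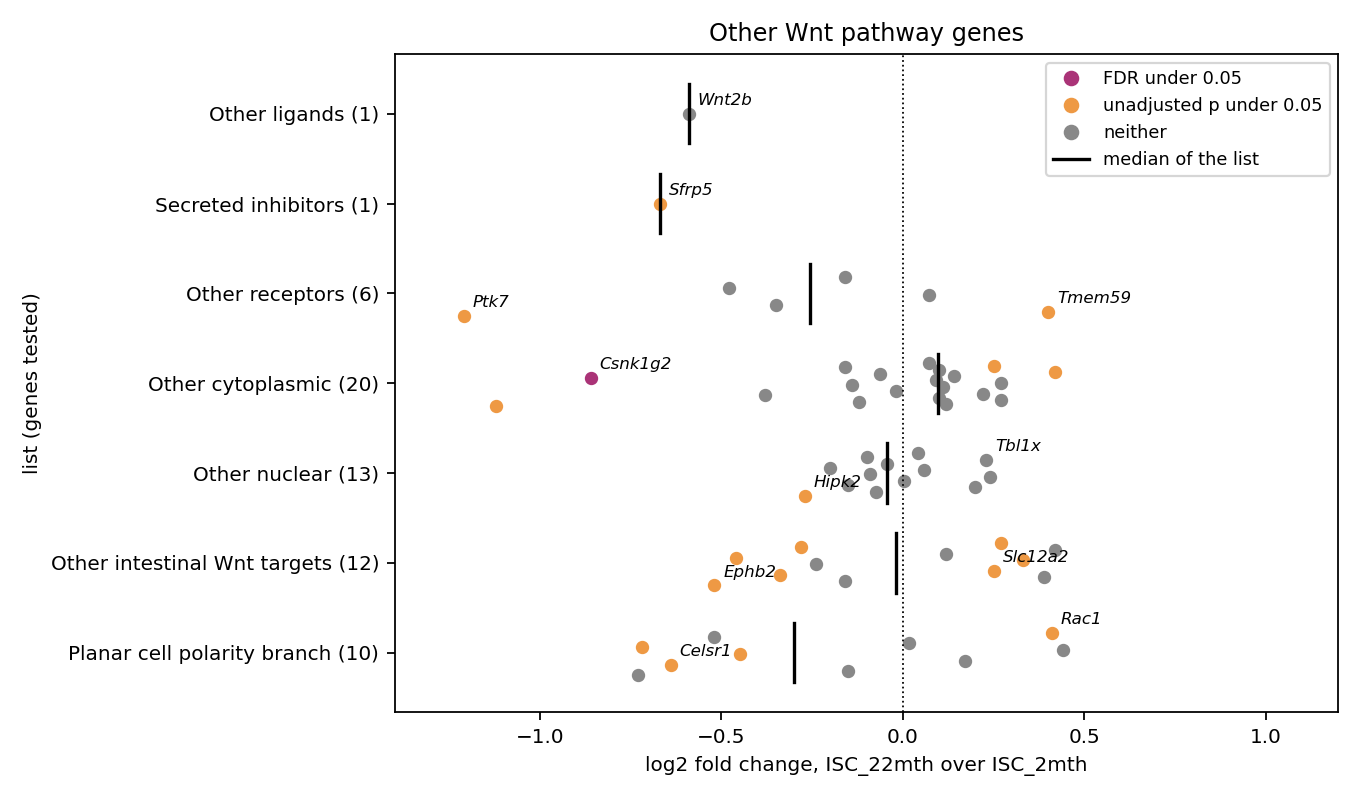
Log2 fold change, ISC_22mth over ISC_2mth, of the 62 other Wnt pathway genes tested, by list (number tested in brackets; Lgr5 is in the lists of receptors and of targets and is drawn in both), with the median of each list as a black bar. Csnk1g2 alone passed FDR 0.05 (purple), and the medians lie between -0.67 (Sfrp5 alone) and 0.093 (other cytoplasmic genes).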

How the data were processed

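RNA of sorted ISCs was measured in 4 libraries, 2 per age, each from a pool of 5 animals. Per the labels and the study's methods, the authors trimmed reads with Trimmomatic 0.30, aligned them to GRCm38 with STAR 2.4.2a, counted reads in exons of GENCODE vM15 genes with featureCounts, and deposited raw counts per gene, without normalization or filter. The strand setting and the treatment of reads with several alignments are not given in the sources used here.

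Genes over 5 reads and over 1 CPM (of total counts, without TMM) in 1 library or more were kept (13692 of 52459). Ages were compared with edgeR 4.0.16 (R 4.3.3), with TMM factors, glmQLFit and glmQLFTest without a covariate, two-sided, and adjustment by Benjamini-Hochberg over all kept genes (threshold 0.05). SEs were derived from the log2 fold change and its F value. The study used limma voom with sample quality weights, which was an alternative here. Its published list at FDR under 0.05 holds Bcl9l, Axin2 and Rnf43 as lower and Apc as higher with age. The voom fit here called Bcl9l and Axin2 among the members, so it did not return that list in full. The cause of the difference was not tested. The other alternatives were limma voom 3.58.1 without weights, DESeq2 1.42.0, the likelihood ratio test, other scalings and filters, the replicate number as a block, offsets for exonic GC content and length (lowess, span 0.3, 3 iterations), and leaving out each pool. The fits were tested on simulated counts.

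Positions, lengths, GC content and the share of a gene's 50-base stretches found in other genes came from GENCODE vM21 (GRCm38), in which 47976 symbols matched. Every member's values are given; test values are given for members with FDR or unadjusted p under 0.05 and for the most abundant and lowest-p member of each role. Of the other pathway genes, those with FDR under 0.05 or else up to 2 of lowest p per list are named. Members and lists were chosen with earlier results of these data known. Lgr5, Muc2, Lyz1, Col1a1, Ptprc and Pecam1 stood for their cell types.

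Depth was between 11662654 and 15975698 counts per library, and intervals and floors of 3 counts cover counting error only where no replicate is used. Pools of an age differed by more than sampling noise (chi-square per gene 10.3 and 7.53) and were kept as separate replicates. The fit left 2 residual degrees of freedom per gene. The p-values therefore rest on a spread between pools that is estimated for each gene with information from all genes tested.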

Additional observations from a re-analysis of the deposited data

How the results depend on the processing

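Over all genes, 309 passed FDR 0.05. The count was 197 with DESeq2, 611 with the likelihood ratio test, 554 with no filter, 125 with GC and length offsets and 4632 with scaling by total counts (96 higher and 4536 lower, against 223 and 86). With a pool left out it ranged from 151 to 710. Among the members, 1 passed. The count was 2 with both voom fits, DESeq2, the likelihood ratio test, RLE factors, the upper quartile, TMM without mitochondrially encoded genes and at least 10 counts in every library, 3 with no filter, 21 with total counts, 0 with GC and length offsets, and from 1 to 3 with a pool left out, when Bcl9l was lost without ISC_2mth replicate 2 and Axin2 was called in every fit but that without ISC_2mth replicate 1. Among the 102 other pathway genes, 1 passed. The count was 3 with both voom fits and no filter, 2 with the likelihood ratio test, the upper quartile and at least 10 counts in every library, 33 with total counts, 0 with GC and length offsets (13 at an unadjusted p under 0.05, 21.0% against 13.6% of all genes), and with a pool left out from 0 (without ISC_2mth replicate 1, with 7 at an unadjusted p under 0.05, 11.3% against 9.79% of all genes) to 4 (without ISC_22mth replicate 1, and likewise without replicate 2).

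The replicate numbers do not mark shared animals, and deviations of same-numbered libraries from their age means were uncorrelated across genes (r = -0.000148). With the replicate number as a block, 624 genes, 2 members and 3 other pathway genes passed. With the block and GC and length offsets these counts were 53, 0 and 0 (6 members and 10 other pathway genes at an unadjusted p under 0.05, 16.2% and 16.1% against 12.7% of all genes), and log2 fold changes turned positive for Fzd4 (0.0044), Fzd5 (0.0069), Lrp5 (0.12), Dvl1 (0.019), Dvl3 (0.011), Gsk3a (0.09) and Bcl9 (0.12); with the block alone this held for Fzd4 (0.0081).

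Signs also turned with GC and length offsets for Lrp5 (0.12), Dvl1 (0.018), Dvl3 (0.0099), Gsk3a (0.11) and Bcl9 (0.12), and with both voom fits for Porcn (0.018) and Fzd4 (0.044). Gsk3b was -0.033 with the upper quartile and -0.013 with at least 10 counts in every library. Scaling by total counts, which moved the median of all genes to -0.49, turned Wnt3 (-0.16), Wls (-0.35), Fzd2 (-0.24), Lgr4 (-0.40), Axin1 (-0.14), Apc (-0.14), Gsk3b (-0.48), Csnk1a1 (-0.26), Sp5 (-0.34), Myc (-0.25), Tmem59 (-0.081), Tbl1x (-0.27), Slc12a2 (-0.24) and Rac1 (-0.084). With a pool left out, signs turned for Wls (-0.017 to 0.33), Fzd1 (-0.45 to 0.065), Fzd4 (-0.62 to 0.74), Fzd5 (-0.31 to 0.12), Fzd6 (-0.45 to 0.0042), Fzd8 (-0.90 to 0.051), Lrp6 (-0.10 to 0.0075), Gsk3a (-0.30 to 0.19), Gsk3b (-0.0059 to 0.021), Bcl9 (-0.14 to 0.11), Tcf7 (-0.32 to 0.18) and Sp5 (-0.059 to 0.38). No sign turned for a member with an unadjusted p under 0.05 except Apc and Myc with total counts. The cause of these shifts was not tested. With between 3852178 and 4593004 counts outside mitochondrially encoded genes, genes of few counts, such as Wnt3, Porcn, Fzd3, Fzd8, Lef1 and Nkd1, had intervals too wide to place a change.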
